A study of Rattus norvegicus with 15 samples.

Results

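Interferon-stimulated genes are the genes that cells switch on when an interferon binds its receptor, and 37 of them, named as a list, were followed here in dorsal CA1 of the rat hippocampus. They were looked up by exact symbol in a table of read counts per gene: 36 of the 37 were among its 22314 genes, Samd9l was not matched, and all 36 passed the filter on low counts that left 14880 genes to test. The list was drawn up by name and not from measured values of these libraries, although earlier results of the same data were known when it was made. The 15 libraries formed 3 groups of 5, all from male wild-type Sprague-Dawley rats aged 8 to 9 weeks that received siRNA by stereotaxic injection into dorsal CA1. The Rnf20-labelled libraries (replicates 4, 8, 14, 18 and 20) came from rats given siRNA against Rnf20, which encodes a ubiquitin ligase for histone H2B, and trained in contextual fear conditioning 5 days later. The Scr trained libraries (5, 6, 10, 15 and 16) came from rats given Scr siRNA, read here as the scrambled control, and trained in the same way. The Scr naive libraries (1, 2, 9, 11 and 12) came from rats given Scr siRNA and not trained. There was no naive group with Rnf20 siRNA and no group without an injection, so every group carried the injection, and the time from training to dissection is not in the labels. The tissue held all brain cell types, so fewer cells of a type and less RNA per cell cannot be told apart.

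Total counts per library were 12537250 to 18458527 in the Rnf20-labelled group, 15342480 to 20644425 in the Scr trained group and 14249375 to 17046535 in the Scr naive group. The targeted gene did not separate the groups. Rnf20 itself was at 42.0 ± 2.32 CPM (counts scaled to library size) in Rnf20-labelled libraries, 43.2 ± 5.38 CPM in Scr trained libraries and 41.8 ± 2.28 CPM in Scr naive libraries (mean ± SD, n = 5 each). In Rnf20-labelled over Scr trained libraries Rnf20 had a log2 fold change of -0.04 (SE 0.08, edgeR adjusted p = 0.945), and the name Rnf20-labelled states the label and no more. Markers of CA1 pyramidal neurons were present in every library, with summed levels of 516 to 898 CPM in Rnf20-labelled, 293 to 1587 CPM in Scr trained and 488 to 1044 CPM in Scr naive libraries. CA3 and dentate markers were present too. Choroid plexus markers varied widely, with summed levels of 81.1 to 1827 CPM in Rnf20-labelled, 10.0 to 4225 CPM in Scr trained and 1394 to 4342 CPM in Scr naive libraries.

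Type I interferons signal through the receptor chains Ifnar1 and Ifnar2 and the kinases Jak1 and Tyk2 to a complex that contains STAT2 and IRF9 and binds an interferon-stimulated response element (ISRE) in the promoters of its targets. Interferon gamma, the type II interferon, acts through its own receptor and mainly through a gamma-activated site (GAS). The targets include sensors of foreign nucleic acid, the ubiquitin-like protein ISG15 with its enzymes, effectors that block viral replication, large GTPases, and chemokines. In brain tissue microglia, astrocytes, endothelium and neurons can all express them, and microglia do so after injury and with age as well as in infection.

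The promoters are shown first because an ISRE is the sequence feature that defines the classical members of this family. RefSeq promoters of the rat assembly GRCr8, taken from 250 bases before to 50 bases after each gene start, were found for 28 of the 36 members. The ISRE core was searched as GAAA, any 2 bases and GAAA again, and the GAS as TTCNNNGAA, on both strands, and the motifs may overlap. An ISRE core was present in 17 of the 28 promoters (60.7%), against 3.92% of all 33469 promoters of the same length. A GAS was present in 8 of the 28 (28.6%), against 8.87% of all promoters. The promoters of Parp14, Oas1a, Bst2, Ifitm3 and Irgm held both motifs. Those of Stat2, Herc6, Trim25, Parp9, Mx1, Oasl, Ifi35 and Sp100 held neither, which says only that these letters are not in this window.

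The following stretches of 20 bases surround the ISRE core, in capitals, in members from each role that has one, read 5′ to 3′ along the gene's strand. Where the core lies on the other strand it reads TTTC, 2 bases and TTTC.
Ifih1: gaatcGAAACAGAAAccgat
Eif2ak2: gccggGAAAACGAAAcagag
Irf7: ttaggTTTCATTTTCccgag
Dtx3l: gaaacGAAACTGAAActttg
Parp14: gaaatGAAAGTGAAAgaagt
Rsad2: tcaacTTTCATTTTCagaaa
Ifit3: gtctgTTTCAGTTTCtagtt
Ifi44: ctgagTTTCAGTTTCatttc
Irgm: gaataGAAACTGAAAccgac
Cxcl10: ctttgGAAAGTGAAActtaa
Ifi27: cagggGAAAAGGAAAcctct

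The core began at position -31 from the gene start in Gbp2, -34 in Irgm and -44 in Ifit3, and at -243 in Cxcl10. Whole promoters are given for 3 members whose values are described below and which differ in motif content, with ISRE cores and GAS in capitals. Irf9 (chr15:33065586-33065885, plus strand) has a GAS and no ISRE core, Oas1a (chr12:41330216-41330515, plus strand) has a pair of ISRE cores and a GAS, and Gbp2 (chr2:234005477-234005776, plus strand) has 1 ISRE core.
Irf9: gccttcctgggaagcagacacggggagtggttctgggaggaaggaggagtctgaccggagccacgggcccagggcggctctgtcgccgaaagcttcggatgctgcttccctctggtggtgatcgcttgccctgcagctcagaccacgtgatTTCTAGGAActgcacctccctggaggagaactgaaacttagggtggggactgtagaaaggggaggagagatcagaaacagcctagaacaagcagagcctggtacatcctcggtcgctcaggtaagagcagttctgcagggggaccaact
Oas1a: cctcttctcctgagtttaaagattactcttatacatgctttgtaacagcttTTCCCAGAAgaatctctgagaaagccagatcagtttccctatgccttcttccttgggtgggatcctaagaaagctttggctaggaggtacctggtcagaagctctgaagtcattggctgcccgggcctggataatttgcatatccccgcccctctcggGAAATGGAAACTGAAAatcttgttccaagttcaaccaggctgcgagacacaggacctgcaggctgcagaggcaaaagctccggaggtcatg
Gbp2: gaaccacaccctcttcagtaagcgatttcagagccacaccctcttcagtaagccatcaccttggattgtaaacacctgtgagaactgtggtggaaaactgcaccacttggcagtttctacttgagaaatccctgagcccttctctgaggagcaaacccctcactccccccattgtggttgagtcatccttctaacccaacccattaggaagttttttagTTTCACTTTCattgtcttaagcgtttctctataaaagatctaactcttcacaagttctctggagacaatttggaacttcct

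Members with and without an ISRE core were then set side by side. The fitted log2 fold change of Scr trained over Scr naive libraries had a median of 0.85 over the 17 members with an ISRE core and 0.83 over the 11 without one. For Rnf20-labelled over Scr trained libraries the medians were -0.82 and -0.62.

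The 36 genes varied together from library to library, and the variation crossed the groups. They took 0.0382% (Rnf20-labelled replicate 14) to 0.195% (Scr trained replicate 15) of a library's counts. Scr trained replicate 15 was the highest of all 15 libraries for 35 of the 36 members, while it was the highest for 11.9% of all tested genes. Scr trained replicate 10 was among the top 2 libraries for 30 members (20.9% of all tested genes) and was the highest for Ifi44. At the other end, Rnf20-labelled replicate 14 was the lowest library for 15 members, Scr naive replicate 1 for 13 and Scr naive replicate 2 for 5. Rnf20-labelled replicate 14 was among the 3 lowest libraries for 28 members (29.7% of all tested genes). Scr naive replicate 1 was so for 27 (14.8%), Scr trained replicate 5 for 22 (18.1%) and Scr naive replicate 2 for 17 (11.3%). The mean log2 CPM over the members was 3.18 in Rnf20-labelled libraries (2.45 to 3.95), 3.96 in Scr trained libraries (2.62 to 5.11) and 3.12 in Scr naive libraries (2.50 to 3.62). The 3 groups therefore overlapped in this mean. Each member's Pearson correlation with the mean of the other 35 across the 15 libraries was 0.80 to 0.98. All genes of a library share its dissection and its depth, which differ between libraries, so this is a description only.

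**Figure D1:**
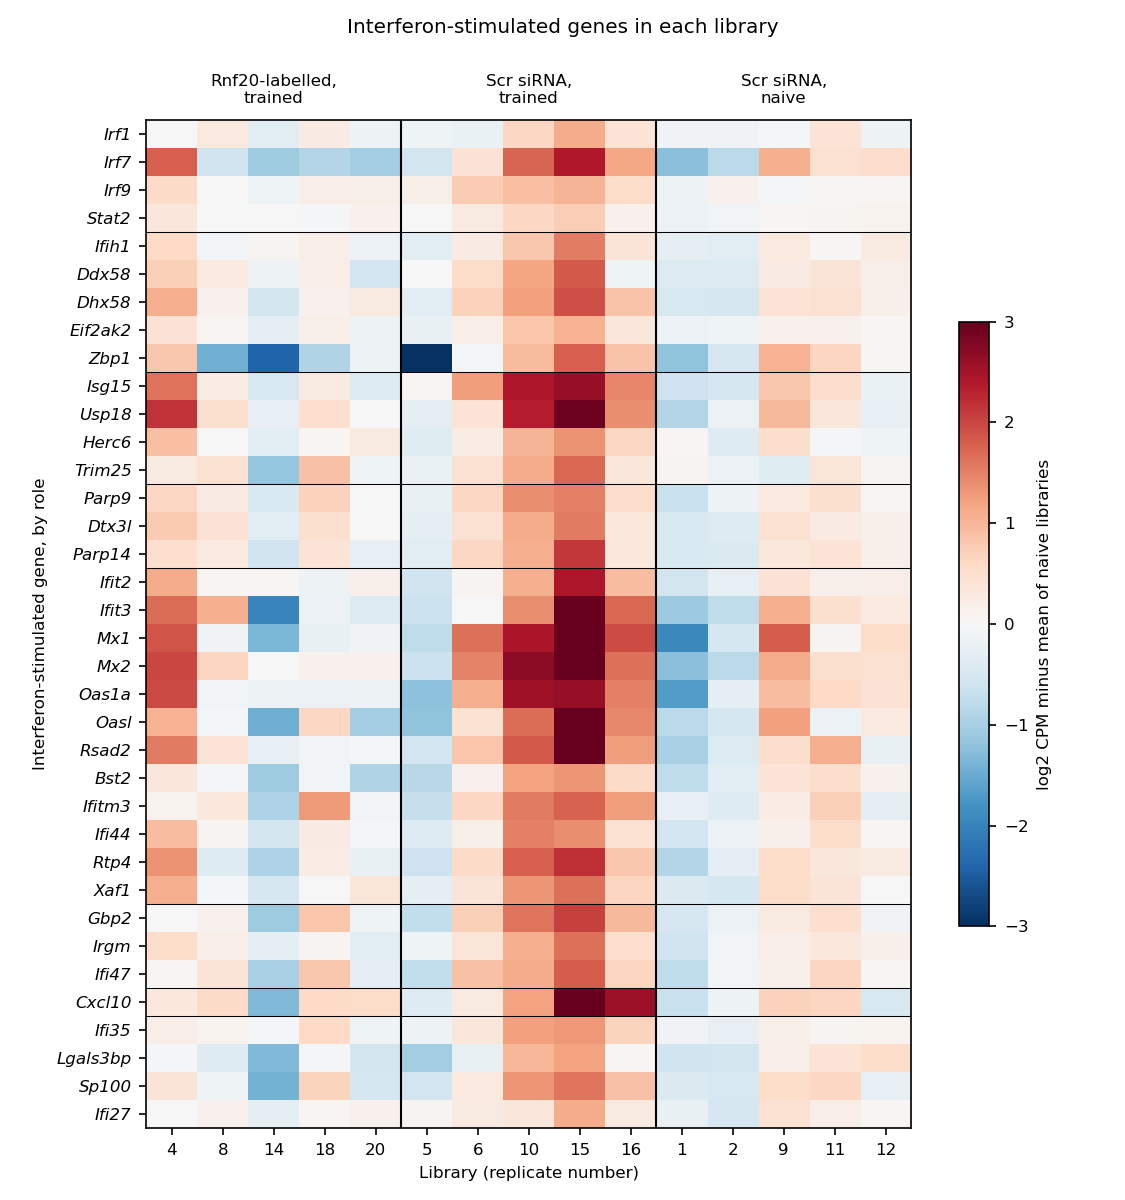
Level of each of 36 interferon-stimulated genes (rows, by role) in each library (columns, by group and replicate number), as log2 CPM minus the mean of the Scr naive libraries, with colours limited to -3 to 3. Scr trained replicates 10 and 15 stand above the naive libraries in most rows, and Scr trained replicate 5 and Rnf20-labelled replicate 14 stand at or below them.

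Libraries of the same group differed in how many members lay outside the naive range. In the Rnf20-labelled group, 24 members were above all 5 naive libraries in replicate 4, 11 in replicate 18, 2 in replicate 20, 1 in replicate 8 and 0 in replicate 14. Over all tested genes the share above all naive libraries was 12.6% in Rnf20-labelled replicate 4, 26.3% in replicate 18, 18.7% in replicate 20, 16.1% in replicate 8 and 23.4% in replicate 14. The count of replicate 18 was thus near that of any gene, and those of replicates 20, 8 and 14 were below it. In the Scr trained group, 36 members were above all naive libraries in replicate 15, 34 in replicate 10, 26 in replicate 16, 17 in replicate 6 and 1, Irf9, in replicate 5. The shares over all tested genes in those libraries were 17.6% to 27.2%. Below all naive libraries were 16 members in Rnf20-labelled replicate 14 (26.9% of all tested genes), 4 in Rnf20-labelled replicate 20 (18.5%), 1 in Rnf20-labelled replicate 8 (17%), 9 in Scr trained replicate 5 (17.8%) and 1 in Scr trained replicate 6 (22.9%), and 0 in the other trained libraries.

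Within a group these genes spread more than most genes did. The ratio of the highest to the lowest library had a median over the members of 3.12 in Rnf20-labelled libraries, 4.81 in Scr trained libraries and 2.18 in Scr naive libraries. The biological coefficient of variation, edgeR's estimate of the spread between replicates, had a median of 0.408 over the members, against 0.161 over all tested genes and 0.148 over the 11774 tested genes whose mean level lay in the members' range. All 36 members were above that last value, from 0.150 for Stat2 to 0.770 for Mx1.

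Trained and naive rats given Scr siRNA were compared to ask how these genes differ after fear conditioning. All 36 members had a higher fitted level in Scr trained than in Scr naive libraries, with log2 fold changes of 0.34 (Lgals3bp) to 2.26 (Cxcl10) and a median of 0.86, where the median over all tested genes was -0.01 and 47.2% of them were above 0. No member passed the threshold of adjusted p under 0.05 by edgeR's quasi-likelihood test in either direction, and neither did any other tested gene (0% called). Adjusted p-values of the members were 0.379 to 0.817. At an unadjusted p under 0.05, 30 of the 36 members were higher and 0 were lower, against 6.62% higher and 3.35% lower among all tested genes. The 6 that missed it were Irf1, Irf7, Zbp1, Bst2, Lgals3bp and Sp100. In 1 member, Irf9, every Scr trained library was above every Scr naive library, which held for 1.10% of all tested genes, while 0.659% lay wholly below. DESeq2's Wald test called 1 member, Irf9 (adjusted p = 0.0192), among 41 higher and 17 lower genes in all, and limma-voom called 0, with 12 members at an unadjusted p under 0.05.

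All 36 members stayed above 0 with each library left out in turn, but the count of 30 rested on a few libraries. The share over all tested genes was not computed for these fits. The count was 6 without Scr trained replicate 15 (median 0.58) and 18 without replicate 10. It was 16 without Scr naive replicate 1 and 15 without naive replicate 2. It was 34 without Scr trained replicate 5, 32 without replicate 6 and 28 without replicate 16. Without naive replicates 9, 11 and 12 in turn it was 27, 28 and 21. It was 2 without Scr trained replicates 10 and 15 and Rnf20-labelled replicates 14 and 18, the libraries that stood farthest out on the first principal component in earlier work on these data; the median was then 0.27, with 34 members above 0.

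Rnf20-labelled and Scr trained rats were compared to ask what Rnf20 siRNA does to these genes in trained animals. All 36 members had a lower fitted level in Rnf20-labelled than in Scr trained libraries, with log2 fold changes of -2.06 (Cxcl10) to -0.29 (Stat2) and a median of -0.83, against a median of 0.00 over all tested genes, 50.7% of which were above 0. This comparison shares the Scr trained libraries with the one before it, so a high Scr trained library raises one and lowers the other. By edgeR 0 of the 36 members were called (adjusted p = 0.832 to 0.838), as were 0% of all tested genes in either direction. At an unadjusted p under 0.05, 18 members were lower and 0 higher, against 2.98% lower and 2.63% higher among all tested genes. In 0 members were the groups apart, which held for 0.262% of all tested genes in the lower and 0.397% in the higher direction. DESeq2 and limma-voom also called 0 members, with 23 and 4 at an unadjusted p under 0.05, and the fit to these 2 groups alone had 11.

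Here, too, single libraries set the count. The count of 18 was 2 without Scr trained replicate 15 (median -0.44), 8 without replicate 10, 9 without Rnf20-labelled replicate 8, 6 without replicate 14 and 5 without replicate 20. It was 30 without Rnf20-labelled replicate 4 and 36 without Scr trained replicate 5. Without the 4 libraries named above, the median was 0.01 and 19 of 36 members were above 0. For these fits, too, the share over all tested genes was not computed.

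Rnf20-labelled trained and Scr naive libraries were close to each other. Of the 36 members 28 were above 0 and 8 below, with log2 fold changes of -0.64 (Zbp1) to 0.77 (Usp18) and a median of 0.16, where 50.6% of all tested genes were above 0. By edgeR 0 members and 0% of all tested genes were called, and adjusted p rounded to 1.00 for every member. At an unadjusted p under 0.05 there were 0 members by edgeR, against 1.21% of all tested genes higher and 1.09% lower, and 0 members had groups that did not overlap, against 0.249% in each direction. Without Rnf20-labelled replicate 4 the direction turned: 13 of 36 members were above 0 and the median was -0.02. The median was 0.05 without Scr naive replicate 1 and 0.24 without Scr naive replicate 9. Training and siRNA label both differ between these groups.

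**Figure D2:**
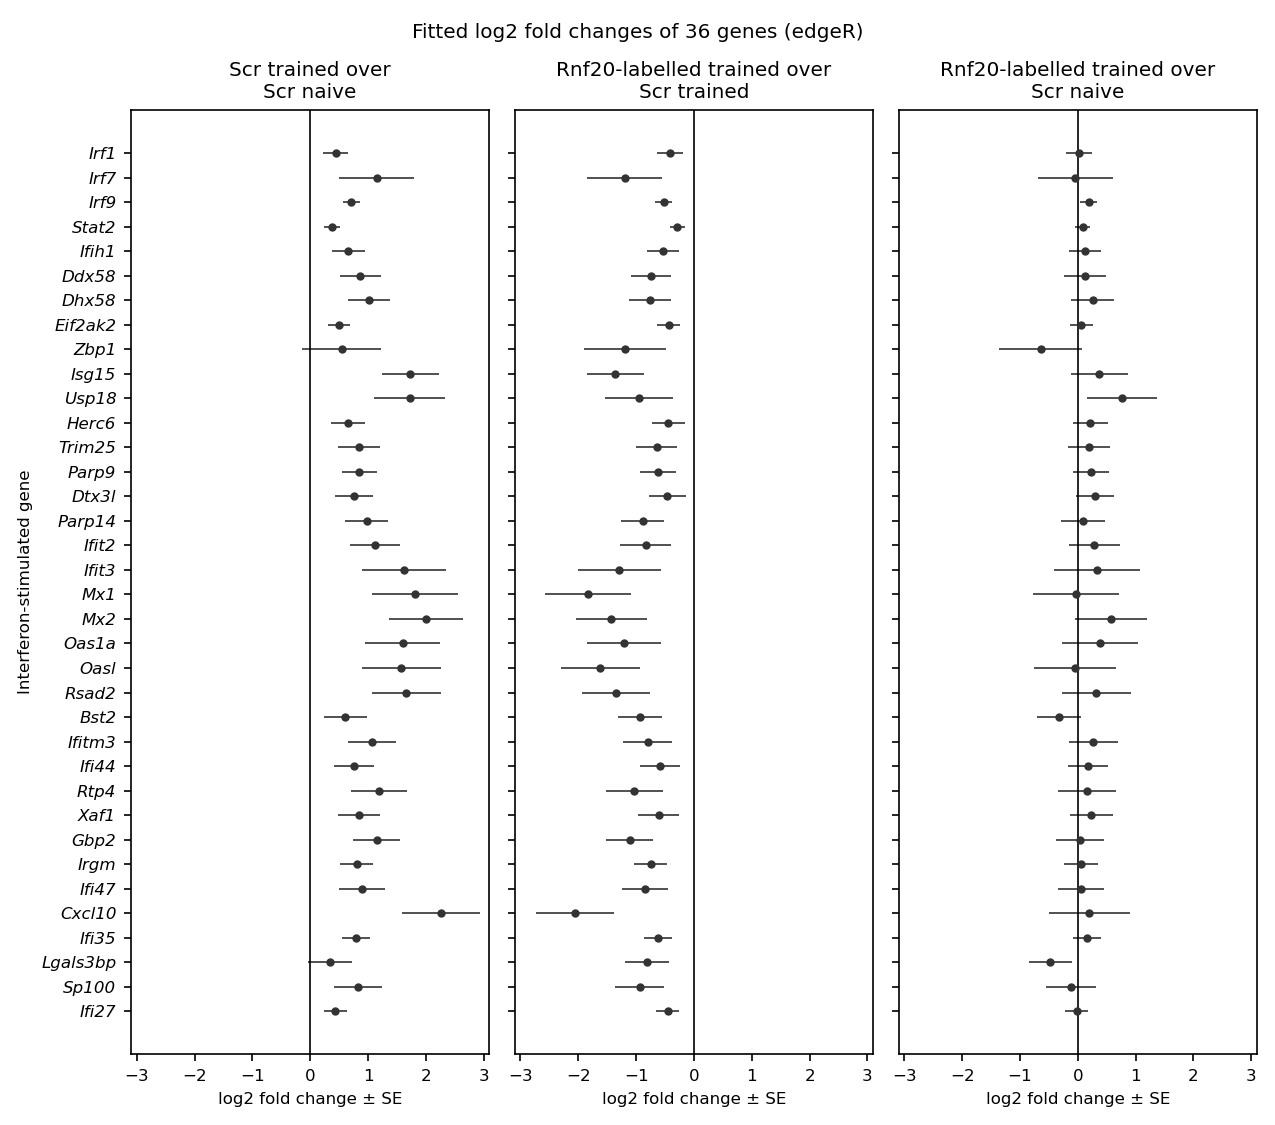
Fitted log2 fold change with its standard error (x axes) of each of 36 interferon-stimulated genes (y axis) in the 3 comparisons, of 5 libraries each. All points lie above 0 for Scr trained over Scr naive and below 0 for Rnf20-labelled over Scr trained libraries, pairs of groups that share the Scr trained libraries, and none passed an adjusted p under 0.05.

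Among the transcription factors, Irf9, the DNA-binding subunit of the interferon-activated complex, differed most steadily. Its level was 26.2, 39.8, 43.7, 47.3 and 34.4 CPM in Scr trained replicates 5, 6, 10, 15 and 16, against 20.9, 25.7, 22.5, 23.8 and 24.1 CPM in Scr naive replicates 1, 2, 9, 11 and 12. The lowest trained library was just above the highest naive one, and the other 4 stood clear of them. Irf9 had a log2 fold change of 0.71 (SE 0.15, edgeR unadjusted p = 0.000259, adjusted p = 0.379), from 0.53 to 0.82 over the alternatives. In Rnf20-labelled replicates 4, 8, 14, 18 and 20 Irf9 was at 35.1, 23.3, 21.5, 26.8 and 26.5 CPM, with replicates 4, 18 and 20 inside the range of the Scr trained libraries. Against Scr trained libraries, the Rnf20-labelled ones gave -0.52 (SE 0.15, adjusted p = 0.832 by edgeR), and against Scr naive libraries 0.19 (SE 0.15).

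Stat2, the partner of Irf9, had the smallest spread of the list, at 60.3, 46.9, 47.8, 46.4 and 52.1 CPM in Rnf20-labelled libraries, 46.9, 57.7, 73.8, 79.0 and 52.4 CPM in Scr trained libraries and 41.9, 45.1, 49.8, 50.3 and 51.5 CPM in Scr naive libraries, in the replicate order above. Scr trained replicates 10 and 15 were the high ones. Irf1, a factor induced mainly by interferon gamma, was at 10.3, 9.80, 17.2, 24.6 and 14.9 CPM in Scr trained and 10.4, 10.4, 10.8, 15.1 and 10.1 CPM in Scr naive libraries, with a log2 fold change of 0.44 (SE 0.22). Irf7, which amplifies the production of type I interferon, spread much more, at 4.33 to 32.4 CPM in Rnf20-labelled, 6.31 to 49.8 CPM in Scr trained and 3.83 to 19.4 CPM in Scr naive libraries, and its groups overlapped throughout.

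The nucleic acid sensors were expressed at modest levels. Dhx58, the RNA-binding sensor LGP2, was at 14.0, 7.22, 4.41, 7.13 and 7.93 CPM in Rnf20-labelled libraries, 5.27, 10.6, 15.5, 25.3 and 12.0 CPM in Scr trained libraries and 4.63, 4.56, 8.72, 8.97 and 7.26 CPM in Scr naive libraries. Scr trained replicate 5 was inside the naive range, and Rnf20-labelled replicates 4, 8, 18 and 20 were inside the Scr trained range. The log2 fold change of Scr trained over Scr naive libraries was 1.01 (SE 0.37, edgeR adjusted p = 0.411) and of Rnf20-labelled over Scr trained libraries -0.75 (SE 0.36). Ddx58, which encodes the viral RNA sensor RIG-I, had 5.33, 7.84, 12.3, 19.4 and 4.84 CPM in Scr trained against 3.97, 3.98, 6.36, 7.02 and 6.05 CPM in Scr naive libraries (0.87, SE 0.35). Eif2ak2, the double-stranded RNA-dependent kinase PKR, was the most abundant of the 5 sensors by CPM, a scale not divided by transcript length, at 31.8, 42.9, 66.1, 76.2 and 47.1 CPM in Scr trained and 32.9, 34.1, 40.6, 40.6 and 38.5 CPM in Scr naive libraries. Its log2 fold change was 0.50 (SE 0.19). Of the 5 sensors 4 had an unadjusted p under 0.05 in that comparison and 1, Eif2ak2, in Rnf20-labelled against Scr trained libraries. Zbp1, a sensor of Z-form nucleic acid, had from 3 counts in replicate 5 to 181 in replicate 15 of the Scr trained libraries, or 0.184 to 8.26 CPM, against 0.926 to 4.91 CPM in Scr naive libraries.

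Isg15, the ubiquitin-like protein that is attached to other proteins in response to interferon, was at 18.1, 6.74, 4.08, 7.0 and 4.32 CPM in Rnf20-labelled libraries, 6.0, 14.0, 31.8, 36.1 and 16.1 CPM in Scr trained libraries and 3.70, 4.04, 10.2, 8.40 and 4.99 CPM in Scr naive libraries. Scr trained replicates 10 and 15 were about 2 times the next library of their group, while replicate 5 lay among the naive libraries. Isg15 had a log2 fold change of Scr trained over Scr naive libraries of 1.73 (SE 0.49, edgeR adjusted p = 0.379) and of Rnf20-labelled over Scr trained libraries -1.36 (SE 0.49). Usp18, the protease that removes ISG15 and restrains receptor signalling, was at 13.1, 3.96, 2.33, 3.99 and 2.76 CPM in Rnf20-labelled, 2.27, 3.79, 14.8, 22.5 and 7.62 CPM in Scr trained and 1.45, 2.46, 5.63, 3.57 and 2.35 CPM in Scr naive libraries, and Rnf20-labelled replicate 4 was again the high one of its group. Its log2 fold change of Scr trained over Scr naive libraries was 1.72 (SE 0.61). Trim25, a ubiquitin ligase that acts on RIG-I, was at 7.75, 8.89, 2.83, 12.0 and 5.87 CPM in Rnf20-labelled, 5.57, 8.95, 14.2, 21.7 and 8.15 CPM in Scr trained and 6.81, 5.68, 5.03, 8.40 and 6.84 CPM in Scr naive libraries. In Trim25 it was replicate 18, not 4, that was highest among the Rnf20-labelled libraries. With Herc6, which in the mouse acts as a ligase for ISG15, all 4 genes of this group had an unadjusted p under 0.05 for Scr trained against Scr naive libraries and 1, Isg15, for Rnf20-labelled against Scr trained libraries.

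Parp9 and Dtx3l encode an ADP-ribosyltransferase-like protein and a ubiquitin ligase that work as a complex, and Parp14 a mono-ADP-ribosyltransferase. Parp9 was at 20.3, 15.8, 9.57, 21.4 and 13.2 CPM in Rnf20-labelled libraries, 11.3, 20.6, 35.2, 37.8 and 19.1 CPM in Scr trained libraries and 8.26, 11.9, 16.2, 18.6 and 13.8 CPM in Scr naive libraries. Scr trained replicates 10 and 15 were above every other library, and the remaining 3 lay inside the range of the Rnf20-labelled libraries. Parp9 had a log2 fold change of 0.85 (SE 0.31, edgeR adjusted p = 0.411) for Scr trained over Scr naive libraries, with 0.76 (SE 0.32) for Dtx3l and 0.98 (SE 0.37) for Parp14. For Rnf20-labelled over Scr trained libraries it was -0.62 (SE 0.31) for Parp9, -0.46 (SE 0.32) for Dtx3l and -0.88 (SE 0.37) for Parp14. Dtx3l was at 2.91 to 6.36 CPM in Rnf20-labelled, 3.0 to 11.0 CPM in Scr trained and 2.64 to 5.03 CPM in Scr naive libraries, and Parp14 at 7.66 to 16.4, 9.31 to 50.9 and 8.46 to 15.4 CPM in the same groups.

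The antiviral effectors held the widest differences of the list apart from Cxcl10. Mx2, a dynamin-like GTPase that restricts viruses, was at 97.7, 38.1, 24.1, 26.6 and 26.5 CPM in Rnf20-labelled libraries, 15.4, 67.8, 157, 258 and 77.0 CPM in Scr trained libraries and 10.1, 13.8, 52.3, 34.1 and 33.4 CPM in Scr naive libraries. Scr trained replicate 5 lay among the lowest libraries of any group, and Rnf20-labelled replicate 4 was above 3 of the 5 Scr trained libraries. The log2 fold change of Scr trained over Scr naive libraries was 2.00 (SE 0.63, edgeR adjusted p = 0.380), and 1.48 without Scr trained replicate 15. Rsad2, which encodes viperin, an enzyme that makes a chain-terminating nucleotide, was at 17.3, 7.85, 4.91, 5.47 and 5.59 CPM in Rnf20-labelled, 3.86, 10.5, 21.1, 55.3 and 14.0 CPM in Scr trained and 2.91, 4.33, 8.48, 12.5 and 4.99 CPM in Scr naive libraries. Its log2 fold change was 1.66 (SE 0.59) for Scr trained over Scr naive and -1.34 (SE 0.58) for Rnf20-labelled over Scr trained libraries. Ifit2, a tetratricopeptide protein that acts on viral RNA, was at 19.9, 9.59, 9.49, 8.23 and 10.2 CPM in Rnf20-labelled, 6.06, 9.67, 19.4, 49.5 and 17.7 CPM in Scr trained and 6.28, 7.72, 12.5, 10.2 and 10.5 CPM in Scr naive libraries, where Scr trained replicate 15 was more than 2 times any other library.

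Across the 12 effectors measured, 11 had an unadjusted p under 0.05 for Scr trained against Scr naive libraries, at a median of 1.38 on the log2 scale, and 5 for Rnf20-labelled against Scr trained libraries, with a median of -1.12. Of all tested genes, 6.62% were higher in the first comparison and 2.98% lower in the second at that p, by edgeR. These shares apply to the counts of the other roles as well. The exception among the effectors in the first comparison was Bst2, which encodes tetherin. It was at 6.68 to 30.4 CPM in Scr trained and 7.07 to 17.4 CPM in Scr naive libraries. Oas1a, an oligoadenylate synthetase, was at 2.27 to 10.6, 1.04 to 16.4 and 0.727 to 5.03 CPM in Rnf20-labelled, Scr trained and Scr naive libraries, and Ifitm3, a membrane protein that blocks viral entry, at 6.24 to 29.2, 7.29 to 40.7 and 9.07 to 19.5 CPM. Mx1, Mx2, Ifit2, Ifit3, Oas1a, Oasl and Ifitm3 belong to families of close relatives, and how reads shared between relatives were counted is not given in the sources used here, so the split within each family is uncertain.

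The GTPases are best known as targets of interferon gamma that act on pathogens inside vacuoles. Gbp2 was at 15.4, 17.2, 7.41, 27.8 and 14.4 CPM in Rnf20-labelled libraries, 9.25, 25.7, 47.8, 64.7 and 30.7 CPM in Scr trained libraries and 11.0, 13.9, 18.8, 22.3 and 14.4 CPM in Scr naive libraries. Scr trained replicate 5 was below all naive libraries and the other 4 were above all of them, and Rnf20-labelled replicate 18 was the high one of its group. Gbp2 had a log2 fold change of 1.15 (SE 0.41, edgeR adjusted p = 0.408) for Scr trained over Scr naive libraries, -1.11 (SE 0.41) for Rnf20-labelled over Scr trained libraries and 0.04 (SE 0.41) for Rnf20-labelled over Scr naive libraries. Irgm and Ifi47, both immunity-related GTPases, had log2 fold changes of 0.80 (SE 0.29) and 0.90 (SE 0.39) for Scr trained over Scr naive libraries. Irgm was at 8.63 to 16.2 CPM in Rnf20-labelled, 9.98 to 34.6 CPM in Scr trained and 7.21 to 13.7 CPM in Scr naive libraries, and Ifi47 at 4.41 to 15.5, 5.21 to 31.4 and 5.16 to 13.9 CPM. All 3 had an unadjusted p under 0.05 in both comparisons.

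Cxcl10, a chemokine that draws T cells through the receptor CXCR3, had the largest fitted fold change of the list and rested on few libraries. It was at 2.10, 2.50, 0.583, 2.58 and 2.48 CPM in Rnf20-labelled libraries, 1.23, 2.02, 3.99, 25.0 and 10.6 CPM in Scr trained libraries and 0.992, 1.46, 2.73, 2.63 and 1.14 CPM in Scr naive libraries. Replicates 15 and 16 were far above the rest, while replicates 5 and 6 lay inside the naive range. The log2 fold change of Scr trained over Scr naive libraries was 2.26 (SE 0.68, edgeR adjusted p = 0.379), and 1.33 without Scr trained replicate 15. For Rnf20-labelled over Scr trained libraries it was -2.06 (SE 0.67), and -1.12 without that replicate.

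**Figure D3:**
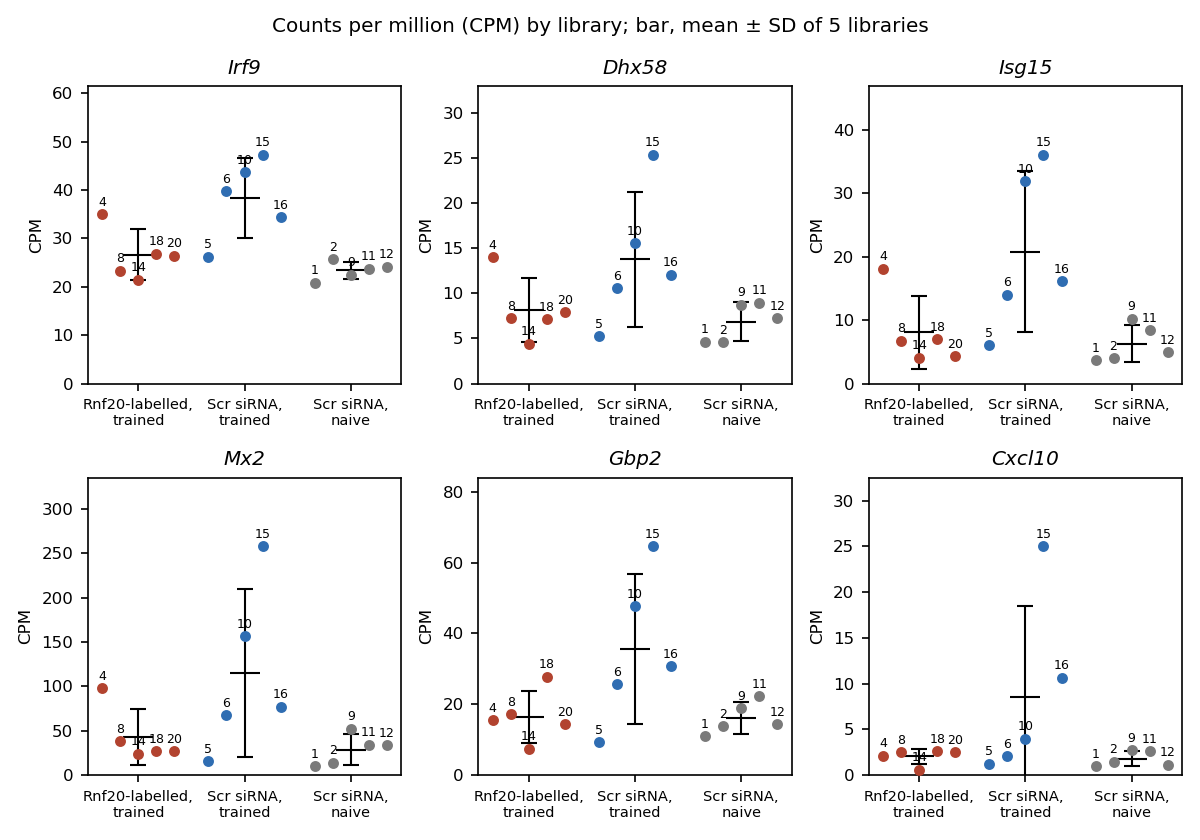
CPM (y axes) of 6 interferon-stimulated genes in each library (points, with replicate numbers) of the 3 groups (x axes), with the mean and SD of 5 libraries; the lower end of the SD of Cxcl10 in Scr trained libraries falls below 0 and is not drawn. In these genes the Scr trained libraries run from replicate 5, the lowest of its group, to replicate 15, the highest of all. Replicate 5 is inside the naive range except for Irf9, where it is just above, and Gbp2, where it is below.

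The remaining members have mixed roles. Ifi35, a leucine zipper protein that modulates sensor signalling, was at 7.14, 6.67, 5.99, 9.40 and 5.59 CPM in Rnf20-labelled libraries, 5.51, 7.90, 14.6, 15.5 and 9.92 CPM in Scr trained libraries and 5.69, 5.15, 7.03, 6.58 and 6.62 CPM in Scr naive libraries. Only Scr trained replicate 5 of its group reached down into the naive range. Its log2 fold change was 0.79 (SE 0.24, edgeR adjusted p = 0.379) for Scr trained over Scr naive libraries and -0.62 (SE 0.24) for Rnf20-labelled over Scr trained libraries. Sp100, a protein of nuclear bodies, had 0.83 (SE 0.42) and -0.94 (SE 0.42) in these comparisons. Ifi27 was the most abundant member in CPM, at 135, 147, 110.5, 141 and 147 CPM in Rnf20-labelled, 143, 161, 171, 293 and 163 CPM in Scr trained and 115, 94.5, 185, 155 and 139.7 CPM in Scr naive libraries. Its groups overlapped apart from Scr trained replicate 15. Lgals3bp, a secreted glycoprotein that binds galectin-3, had the smallest log2 fold change of Scr trained over Scr naive libraries (0.34, SE 0.37).

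The list did not move as 1 block in every library. The Rnf20-labelled replicates 4 and 18 both held members above the naive range: 6 were above it in both (Irf9, Eif2ak2, Parp9, Dtx3l, Parp14 and Ifi35), 18 in replicate 4 and not 18, and 5 (Trim25, Ifitm3, Gbp2, Ifi47 and Sp100) in replicate 18 and not 4. Irf7 was at 32.4 CPM in replicate 4 and 4.98 CPM in replicate 18, Mx1 at 45.3 and 10.4 CPM, Oas1a at 10.6 and 2.27 CPM, and Usp18 at 13.1 and 3.99 CPM. The order was turned round for Ifitm3, at 12.7 CPM in replicate 4 and 29.2 CPM in replicate 18, Gbp2, at 15.4 and 27.8 CPM, Ifi47, at 8.97 and 15.5 CPM, and Trim25, at 7.75 and 12.0 CPM. In all, 25 members were higher in replicate 4 and 11 in replicate 18, a division made after the values were seen and given without a test. The 11 were Ifitm3, Gbp2, Ifi47, Trim25, Ifi35, Cxcl10, Sp100, Irf1, Parp9, Ifi27 and Lgals3bp. The same division of all tested genes was not computed. Of all tested genes, 12.6% were above the naive range in replicate 4 and 26.3% in replicate 18. The members above it in replicate 18 were thus near the share of any gene, and are not shown to be a distinct subset.

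**Figure D4:**
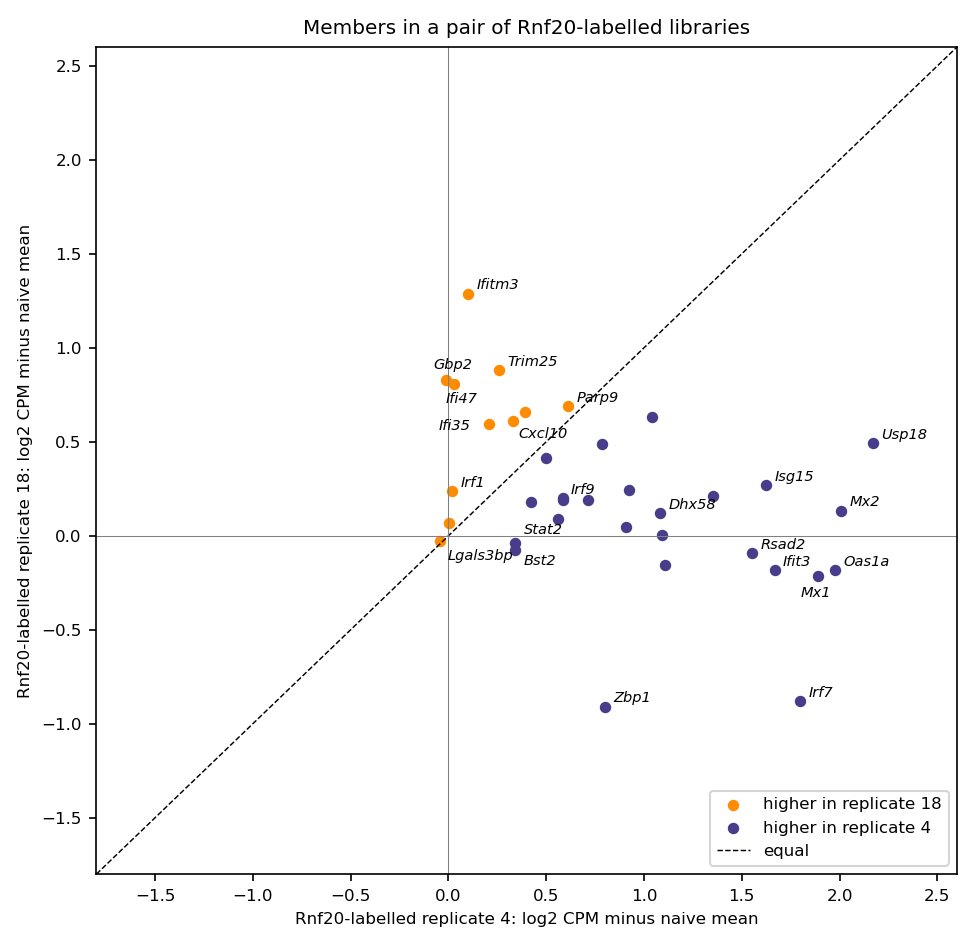
Each of 36 interferon-stimulated genes in Rnf20-labelled replicate 4 (x axis) and replicate 18 (y axis), as log2 CPM minus the mean of the Scr naive libraries; the dashed line marks equal values. The 25 genes below the line include Irf7, Mx1, Mx2, Oas1a, Usp18 and Isg15, and the 11 above it include Ifitm3, Gbp2, Ifi47 and Trim25.

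Markers of glia and blood-borne cells differed between the same libraries. The summed level of 14 reactive glia markers was 2407 CPM in Rnf20-labelled replicate 4 and 8594 CPM in replicate 18, that of 14 leukocyte markers 69.1 and 413 CPM, and that of 11 microglia markers 808 and 1637 CPM. Rnf20-labelled replicate 4, with 24 members above the naive range, was thus below every naive library in all 3 sums, the lowest naive sums being 3159, 98.7 and 830 CPM. Rnf20-labelled replicate 14, the lowest library for 15 members, was at 2368, 63.9 and 755 CPM. Of other genes of the pathway, Irf8, a factor of microglia and myeloid cells, was at 19.1 CPM in replicate 4 and 66.7 CPM in replicate 18, Tlr8, an endosomal RNA sensor, at 0.498 and 11.5 CPM, and Socs3, a feedback inhibitor of STAT3 signalling, at 0.664 and 9.28 CPM. These 3 genes were chosen after their values were seen.

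Across the groups, the markers stood beside the interferon-stimulated genes as follows. Reactive glia markers summed to 2368 to 8594 CPM in Rnf20-labelled, 4439 to 9823 CPM in Scr trained and 3159 to 4784 CPM in Scr naive libraries. Leukocyte markers summed to 63.9 to 413 CPM, 161 to 640 CPM and 98.7 to 171 CPM in those groups, microglia markers to 755 to 1637 CPM, 932 to 1827 CPM and 830 to 1366 CPM, and blood markers to 181 to 757 CPM, 225 to 1826 CPM and 156 to 264 CPM. Scr trained replicates 10 and 15, the highest for the interferon-stimulated genes, were also the highest of all libraries for reactive glia and leukocyte markers. For Scr trained over Scr naive libraries all 14 reactive glia markers (median log2 fold change 1.23), all 8 tested leukocyte markers (1.12), 9 of 11 microglia markers (0.24) and all 5 blood markers (2.08) were above 0, while 0 of 7 neuron (-0.20), 0 of 6 oligodendrocyte (-0.26) and 0 of 5 endothelium markers (-0.22) were. The comparison of Rnf20-labelled over Scr trained libraries, which shares the Scr trained group, had 0 of 14 reactive glia markers (-0.75), 1 of 8 leukocyte (-0.43), 1 of 11 microglia (-0.37) and 0 of 5 blood markers (-0.995) above 0, with 7 of 7 neuron (0.14), 5 of 6 oligodendrocyte (0.14) and 3 of 5 endothelium markers (0.01). Of these markers 0 were called by edgeR in either comparison. Markers that define lymphocytes were near 0: Cd3d, Ms4a1 and Nkg7 were at most 0.246, 0.177 and 0.274 CPM in any library. Which of these cells carried the interferon-stimulated transcripts was not tested.

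**Figure D5:**
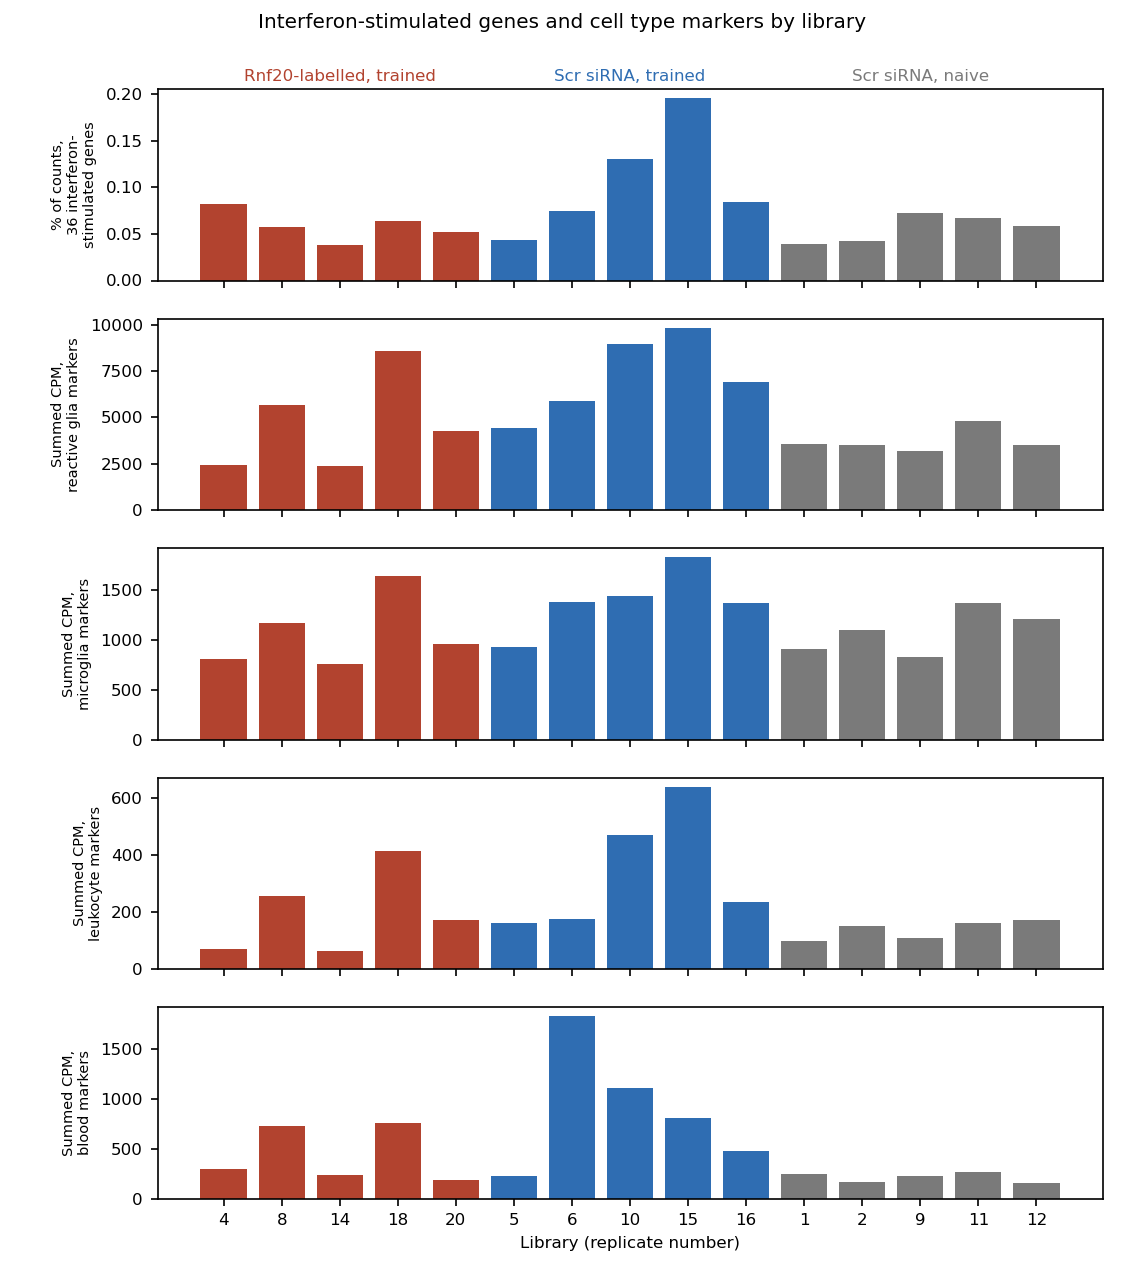
Share of all counts taken by 36 interferon-stimulated genes (top, percent) and summed CPM of reactive glia, microglia, leukocyte and blood markers (lower panels) in each library (x axis, replicate number), coloured by group. Scr trained replicates 10 and 15 are high in the top 4 panels, whereas Rnf20-labelled replicate 4 is high in the top panel and low in the next 3.

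Genes of the pathway outside the list were taken from lists by role. Of 12 interferon ligands 4 were in the table, and none had enough counts to be tested: Ifna2 had 1 count over all 15 libraries, Ifna4 had 3, Ifne 5 and Ifnk 3. The ligands without a row, Ifnb1 and Ifng among them, could not be assessed under those symbols. For the 4 with a row, whether low depth or absent expression lay behind the low counts was not tested. All 6 receptor genes were expressed, 5 of them above 0 for Scr trained over Scr naive libraries (median 0.22 on the log2 scale). Il10rb, a chain of the interferon lambda and interleukin-10 receptors, had 0.69 (SE 0.30) and Ifnar1, a chain of the type I receptor, 0.12 (SE 0.07). Among the transducers, the kinases Jak1, Jak2 and Tyk2 had -0.04, 0.04 and 0.09, and the transcription factor Stat3 had 0.50 (SE 0.17). Upstream sensors and adaptors had a median of 0.34 over 14 tested genes, and negative regulators 0.23 over 8. None of these genes was called by edgeR.

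A further list of 49 interferon-induced genes that were not members showed the same directions. Its counts come from the same libraries as those of the members. Of its 34 tested genes, 33 were above 0 for Scr trained over Scr naive libraries, the median being 0.72 on the log2 scale. Among all tested genes 47.2% were above 0. At an unadjusted p under 0.05 by edgeR, 13 of the 34 were higher, against 6.62% of all tested genes. For Rnf20-labelled over Scr trained libraries 33 of 34 were below 0, with a median of -0.56, where 50.7% of all tested genes were above 0. At an unadjusted p under 0.05, 11 of the 34 were lower, against 2.98% of all tested genes. By edgeR 0 were called in either comparison. Gbp4, another guanylate-binding protein, had 1.07 (SE 0.32) and -0.93 (SE 0.32) in the 2 comparisons, and Cxcl11, a chemokine for the same receptor as Cxcl10, 1.91 (SE 0.67) and -1.01 (SE 0.62). Outside all lists, the genes most like the members' mean log2 CPM over the 15 libraries by Pearson correlation were led by Tap1, a peptide transporter of antigen presentation (0.96), Oas1f (0.95) and AABR07059663.1 (0.94), followed by Zc3hav1, a zinc-finger antiviral protein (0.93). Rnf213, a large ubiquitin ligase, and Uba7, the enzyme that activates ISG15, were both at 0.92 and also among the 10 most alike. Tap1 was at 5.25 to 13.2 CPM in Rnf20-labelled, 6.74 to 31.2 CPM in Scr trained and 8.07 to 13.7 CPM in Scr naive libraries.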

How the data were processed

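RNA of dorsal CA1 was measured in 15 libraries, 5 per group, made with a stranded mRNA kit and 14 cycles of PCR, per the labels' protocols. Per the submitters' processing notes, the authors used Trim Galore, FastQC, featureCounts 2.0.1 on Rnor_6.0 and DESeq2; for the aligner and the strand setting, nothing is given in the sources used here. In the deposited raw table, values are read counts per gene. The deposited normalised signal table was checked: each value was the count over a DESeq2 size factor (0 genes differing at a relative tolerance of 1e-06), and it was not used further.

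The tests used edgeR 4.0.16 under R 4.3.3: filterByExpr (14880 of 22314 genes, 99.9% of counts), TMM scaling, and the robust quasi-likelihood F test on 3 group means (12 residual degrees of freedom), adjusted by Benjamini-Hochberg over all tested genes, with a threshold of 0.05. CPM uses the TMM-scaled library size, and log2 CPM a prior count of 2. On simulated data for Scr trained against Scr naive libraries (14859 genes tested), 74% of changes of 1 and 97% of changes of 2 on the log2 scale were called, with 12 false calls. The changed genes were drawn at random from all tested genes, whose median biological coefficient of variation was 0.161, against 0.408 for the members. These rates therefore do not apply to the members. Alternatives were median-ratio scaling, DESeq2 1.42.0, limma-voom (limma 3.58.1), no filter, at least 1 CPM in 5 libraries, the compared groups alone, each library left out, and 4 libraries left out together.

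The members and lists were chosen with earlier results of these data known. All members are named by symbol and role, and full values are given for up to 3 per role with the smallest p for Scr trained against Scr naive libraries; other genes are given by range and count. The labels do not say that each library is a separate animal, so p-values reflect the spread between libraries, which may be technical. Promoters are RefSeq sequences of GRCr8, matched by symbol or synonym.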

Additional observations from a re-analysis of the deposited data

Results flagged for a closer look

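In each group of 5 libraries, the highest and lowest library of each of the 36 genes was compared with the rest by Dixon's ratio on log2 CPM, the gap to the nearest library over the range of the group. Of 108 sets of 5 libraries 6 exceeded the 95% limit, and chance alone gives about 1 in 20. In the Rnf20-labelled group, replicate 4 stood apart on the high side for Irf7 (ratio 0.831; 32.4 CPM), Ifit2 (0.760; 19.9 CPM) and Oas1a (0.957; 10.6 CPM). Replicate 14 of that group stood apart on the low side for Cxcl10 (0.855; 0.583 CPM). In the Scr trained group, replicate 15 stood apart on the high side for Ifi27 (0.747; 293 CPM). In the Scr naive group, replicate 11 stood apart on the high side for Irf1 (0.825; 15.1 CPM). The cause was not tested for any of them.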

How the results depend on the processing

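The number of members called was 0 in each comparison and direction under every alternative run, except that DESeq2 called 1, Irf9, higher in Scr trained than in Scr naive libraries (log2 fold change 0.71, adjusted p = 0.0192). Over the alternatives the edgeR and limma-voom adjusted p of Irf9 was 0.121 to 0.819. With each library left out in turn, the median over the members was 0.58 to 1.04 for Scr trained over Scr naive, -1.05 to -0.44 for Rnf20-labelled over Scr trained and -0.02 to 0.24 for Rnf20-labelled over Scr naive libraries. With the 4 libraries left out together, members above 0 went from 36 to 34 for Scr trained over Scr naive libraries. They went from 0 to 19 for Rnf20-labelled over Scr trained libraries. Without Rnf20-labelled replicate 4, members above 0 went from 28 to 13 for Rnf20-labelled over Scr naive libraries. Turned signs are given below for the medians and for some members only, and the cause was not tested. For Rnf20-labelled over Scr trained libraries leaving out Scr trained replicates 10 and 15 with Rnf20-labelled replicates 14 and 18, the median was 0.00588, the value of Dhx58 0.0581 and that of Mx2 0.00997. For Rnf20-labelled over Scr naive libraries without Rnf20-labelled replicate 4, the median was -0.0249, Dhx58 was -0.0298 (up to 0.41 with another library left out) and Isg15 -0.18 (up to 0.62). In that comparison Gbp2 was -0.0086 by limma-voom, -0.0395 without the same 4 libraries, and ran from -0.23 to 0.22 with each library left out. Low counts limit most the ligands that have a row and the members with a library under 1 CPM (Zbp1, Oasl, Cxcl10, Ifit3 and Oas1a). No paired analysis was possible because the groups share no replicate numbers.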
